A study of Homo sapiens with 6 samples.

Results

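SRCAP, EP400 and 8 genes of the CHD family (CHD1, CHD2, CHD3, CHD4, CHD6, CHD7, CHD8 and CHD9) encode ATPases that move, evict or exchange nucleosomes. These 10 genes were taken by symbol from the 30717 named genes of a transcript count table, in which they hold 169 transcripts. They were chosen by their levels after knockdown of circPTK2, since an earlier look at the same libraries put SRCAP among the genes highest and CHD6 among those lowest against the control. Their knockdown values are therefore a description, and test outcomes on them are printed beside the shares over all genes and support nothing. The comparison of the 2 cell lines played no role in picking them, although results of these data were known.

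Chromatin remodellers use ATP to change where nucleosomes sit or what they are made of. SRCAP and EP400 are the motor subunits of 2 large complexes that place the histone variant H2A.Z at promoters and enhancers. EP400 works together with the acetyltransferase TIP60. The CHD proteins carry paired chromodomains beside the motor and fall into 3 subfamilies by sequence. CHD1 and CHD2 accompany transcribing polymerase, CHD3 and CHD4 are alternative motors of the NuRD deacetylase complex, and CHD6 to CHD9 are very large proteins tied to developmental gene control.

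The 6 libraries come from T24 and UMUC3, established human bladder cancer lines, with 1 control and 2 circPTK2 knockdown libraries in each line. CircPTK2 is a circular RNA that derives from PTK2, the focal adhesion kinase gene. The reagent is an siRNA by the sample titles and an sh construct by the text on the series' design, and knockdown 1 and 2 below follow the titles. The circle was not measured here and its knockdown was not checked. The controls are labelled si-circPTK2-CON, with no further detail. No label names separate cultures for the paired knockdown libraries of a line, so a p-value here reflects the spread among the given samples alone, which may be technical. By the titles knockdown 1 and 2 are different reagents against the circle, so n = 2 counts reagents, and their difference is part of that spread.

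The libraries held 65111683 to 72362436 counts, of which 55071837 to 60780176 fell in named genes. Levels are in CPM, counts scaled to a common library size with TMM factors. Of 16 urothelial and epithelial markers, 15 were in the table, and 8 reached 1 CPM in all T24 libraries against 4 in all UMUC3 libraries. Their summed level was 3281 to 3465 CPM in T24 and 178.9 to 199.7 CPM in UMUC3. CDH1, uroplakins, KRT20, KRT5 and TP63 stood at 0 or below 1 CPM in both lines, so several defining urothelial markers were very low in both. Others were well expressed in T24, among them KRT8 (1482 to 1692 CPM), FOXA1 (114 to 152), PPARG (62.4 to 63.2) and GATA3 (44.2 to 73.5). In UMUC3 KRT8 was at 81.5 to 91.0 CPM and GATA3 below 1 CPM. The steady T24 sum held opposite moves. In the order control, knockdown 1, knockdown 2, KRT7 was at 171, 479.8 and 708.3 CPM and KRT18 at 835.5, 424.5 and 389.6 CPM. The 4 leukocyte and 4 endothelial or fibroblast markers in the table summed to 7.53 to 9.35 and 66.8 to 77.9 CPM in T24, and to 29.1 to 54.6 and 3.68 to 7.27 CPM in UMUC3. Most of these sums came from CDH5 in T24 (64.5 to 75.5 CPM, 0 in UMUC3) and CD68 in UMUC3 (28.2 to 54.2 CPM), while the leukocyte marker PTPRC was at 0 to 0.0674 CPM, and their part in the results was not tested. In bulk RNA, fewer cells of a kind and less RNA per cell cannot be told apart.

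The windows of 250 bases before the RefSeq start (GRCh38.p14) are shown for SRCAP and CHD2, which lay above and below the control, respectively, in all 4 knockdown libraries. Capitals mark the GC box (GGGCGG) and TGACG, called the CRE element below, a partial match to the site of cyclic AMP response factors, searched on both strands. The SRCAP window is chr16:30698921-30699170 and the CHD2 window chr15:92900074-92900323, both on the plus strand.
SRCAP: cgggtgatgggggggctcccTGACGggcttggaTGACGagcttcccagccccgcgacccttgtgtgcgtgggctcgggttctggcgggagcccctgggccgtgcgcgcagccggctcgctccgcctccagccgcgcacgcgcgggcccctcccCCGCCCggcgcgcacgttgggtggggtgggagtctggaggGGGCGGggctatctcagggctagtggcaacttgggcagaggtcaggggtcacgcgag
CHD2: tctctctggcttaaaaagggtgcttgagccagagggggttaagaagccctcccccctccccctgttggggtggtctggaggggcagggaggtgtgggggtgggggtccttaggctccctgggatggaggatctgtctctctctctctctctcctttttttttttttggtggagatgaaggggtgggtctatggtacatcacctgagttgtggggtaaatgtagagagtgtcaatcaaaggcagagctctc
G and C made up 74.8% of the SRCAP window and 54.8% of the CHD2 window, beside a median of 58.0% over 35116 windows. The SRCAP window held 2 CRE elements and 2 GC boxes, one of the latter read as CCGCCC. Neither of these motifs stood in the CHD2 window on either strand, nor did the CCAAT box (CCAAT), the core of ETS factor sites (CCGGAAG), the E box (CACGTG) or the TATA box (TATAAA). Over all windows, 42.6% held a GC box and 21.2% a CRE element. Of the 10 genes, 8 had an entry with 11 windows in all, of which 7 held a GC box and 3 a CRE element. CHD6 and CHD7 had no entry. The GC box stood in windows of SRCAP, EP400, CHD1, CHD4, CHD8 and CHD9, and the CRE element in those of SRCAP, CHD4 and CHD9. CHD4 and CHD9 also held both motifs among their windows, not necessarily in the same window. Their gene sums lay below the control in all 4 knockdown libraries. Any link between motifs and levels was not tested. These matches describe letters only.

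After knockdown, SRCAP and CHD8 lay above the control of their line in all 4 knockdown libraries, and CHD2, CHD4, CHD6 and CHD9 lay below it in all 4. EP400, CHD1 and CHD3 stood on opposite sides in the 2 lines. Of all 20721 tested genes, 13.3% lay above in all 4 libraries, 15.1% below in all 4 and 24.4% on opposite sides. Since these contrasts chose the genes, nothing is read from their counts. No member passed edgeR's quasi-likelihood test (adjusted p under 0.05) in both lines together, where 2 of 20721 genes (0.00965%) did, in T24 (also 0.00965%) or in UMUC3 (0.0627%). At an unadjusted p under 0.05 the edgeR tests counted 4, 6 and 4 members, beside 9.55%, 12.2% and 16.9% of all tested genes. DESeq2 called 3, 2 and 4 members after adjustment, beside 6.21%, 5.91% and 10.4% of the genes it tested. With edgeR refitted on the 4467 genes of stable transcript make-up alone (composition shift under 20% in both lines, defined below), SRCAP and CHD6 passed in both lines together (edgeR adjusted p = 0.0375 for each), in T24 (0.0436 and 0.0288) and in UMUC3 (0.0256 and 0.025). CHD9 passed there in UMUC3 (edgeR adjusted p = 0.0255) and in neither other contrast. Of these 4467 genes 1.1%, 3.2% and 11.9% passed. They were picked by transcript make-up in the same 6 libraries, and the adjustment ran over fewer genes. The members that passed here were also chosen by these contrasts, so their passing supports nothing.

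**Figure D1:**
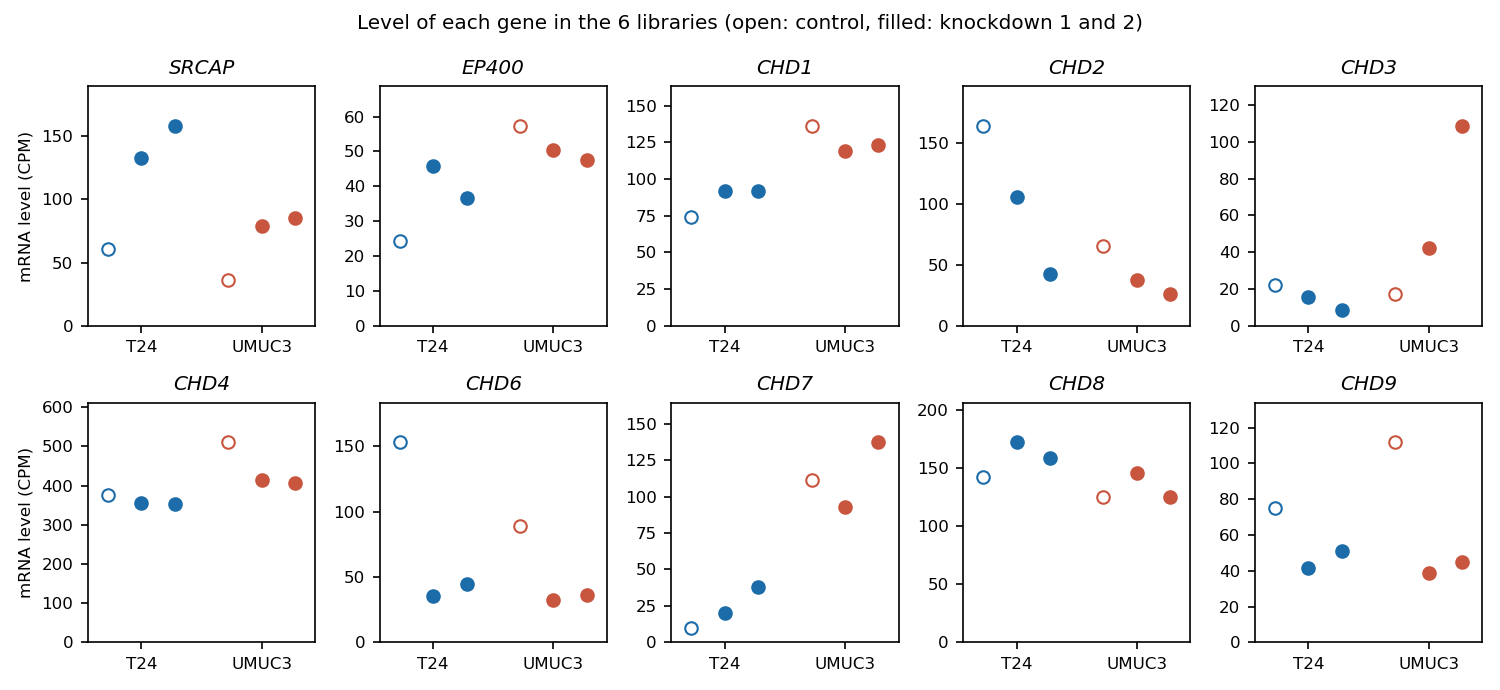
Level in CPM (vertical axis, linear from 0, 1 scale per gene) of the 10 genes in the 6 libraries, with open circles for controls and filled circles for knockdown 1 and 2. SRCAP lies above and CHD6 below the control in both lines, with the knockdown libraries close to each other, whereas the knockdown libraries of CHD2 in T24 and of CHD3 in UMUC3 lie far apart.

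SRCAP (ENSG00000080603, 16:30698209-30741409, plus strand), the motor of the SRCAP complex, stood at 60.3 CPM in control T24 cells, 132 CPM after knockdown 1 and 158 CPM after knockdown 2. Control UMUC3 cells held 36.0 CPM, and the knockdown libraries 78.6 and 85.3 CPM. Both lines thus showed a gap between control and knockdown that was wider than the gap between the knockdown libraries. The knockdown mean was 145 ± 17.9 CPM (SD, n = 2), or 2.41 times the control, in T24, and 82.0 ± 4.75 CPM (SD, n = 2), or 2.28 times the control, in UMUC3. The fitted log2 change was 1.27 ± 0.17 (SE) in T24 and 1.19 ± 0.17 in UMUC3. A knockdown mean of at least 2 times the control in both lines was seen in 663 genes, 3.2% of those tested. Antisense AC093249.6, which overlaps the start of SRCAP, was at 0.756 to 1.5 CPM in all libraries, and AC106886.5, on the same strand, at 2.21 to 8.44 CPM.

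EP400 (ENSG00000183495, 12:131949920-132081102, plus strand), the other H2A.Z-placing motor, did not run parallel to SRCAP. Control T24 cells held 24.3 CPM and their knockdown libraries 45.7 and 36.8 CPM, 1.70 times the control on average. Control UMUC3 cells held 57.3 CPM and their knockdown libraries 50.5 and 47.4 CPM, 0.854 times the control. The 2 lines therefore stood on opposite sides of their controls, and the T24 knockdown libraries came closer to the UMUC3 level. The log2 change was 0.76 ± 0.20 in T24 and -0.23 ± 0.19 in UMUC3. The pseudogene EP400P1, a near copy whose reads may be shared with EP400, was at 3.75 to 8.64 CPM in T24 and 6.56 to 26.8 CPM in UMUC3. The EP400 level is thus uncertain, by an amount that was not measured.

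CHD1 (ENSG00000153922, 5:98853985-98928957, minus strand), whose chromodomains bind methylated lysine 4 of histone H3, stayed near its control in either line. T24 libraries held 74.3 CPM without and 91.8 CPM with either knockdown. UMUC3 libraries held 136 CPM in the control, 119 CPM after knockdown 1 and 123 CPM after knockdown 2. The ratios to the control were 1.24 in T24 and 0.890 in UMUC3, so the differences were small and of opposite sign.

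CHD2 (ENSG00000173575, 15:92900189-93028005, plus strand), the closest relative of CHD1 and an epilepsy gene, was lower after knockdown in both lines but unevenly so. The T24 level was 164 CPM in the control, 106 CPM after knockdown 1 and 42.4 CPM after knockdown 2. The UMUC3 values were 65.8 CPM, 37.7 CPM and 26.4 CPM in the same order. The T24 knockdown mean of 74.0 ± 44.7 CPM (SD, n = 2) thus has an SD that is large beside the gap to the control. Average ratios to the control were 0.450 in T24 and 0.488 in UMUC3.

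CHD3 (ENSG00000170004, 17:7884806-7912760, plus strand), a NuRD motor, lay below its control in T24 and above it in UMUC3. The T24 values were 22.0 CPM in the control, 15.6 CPM after knockdown 1 and 8.73 CPM after knockdown 2. The UMUC3 values were 17.6 CPM, 42.3 CPM and 109 CPM in that order. The UMUC3 ratio of 4.30 was the highest among the 10 genes in that line, and it rests on libraries that differ from each other by more than the first differs from the control. The log2 change was -0.85 ± 0.69 in T24 and 2.1 ± 0.79 in UMUC3. NAA38, which overlaps CHD3 on the opposite strand, was at 17.7 to 32.7 CPM and cannot be separated from it where they overlap, as the sources do not say whether reads kept their strand.

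CHD4 (ENSG00000111642, 12:6570082-6614524, minus strand), the main NuRD motor of most cells, had 376 CPM in control T24 cells, 356 CPM after knockdown 1 and 353 CPM after knockdown 2. Its UMUC3 values were 510 CPM, 414 CPM and 406 CPM in the same order. The gene sum was thus slightly lower after knockdown, at 0.941 and 0.805 times the control. On coding transcripts alone the direction was the opposite, with 218 CPM before and 342 or 324 CPM after knockdown in T24. The UMUC3 values were 309 CPM before and 394 or 391 CPM after it. These coding values depend on how reads were divided among overlapping transcripts. A retained intron transcript, described below, held 7300 (T24) and 7357 (UMUC3) counts in the controls and nearly none after knockdown. Most of its reads could have been given to a coding transcript instead, and whether coding CHD4 RNA rose was not tested. Antisense AC006064.2, which overlaps CHD4, was at 0.66 to 1.13 CPM.

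CHD6 (ENSG00000124177, 20:41402101-41618494, minus strand), of the large CHD6 to CHD9 subfamily, had the lowest ratio to the control of the 10 genes in T24. Control T24 cells held 153 CPM, against 35.9 CPM with knockdown 1 and 45.0 CPM with knockdown 2. Control UMUC3 cells held 89.3 CPM, against 32.5 CPM and 36.1 CPM with knockdown 1 and 2. The controls differed between the lines by 1.71 times, whereas the 4 knockdown libraries fell within 32.5 to 45.0 CPM. The knockdown mean was 40.4 ± 6.46 CPM (SD, n = 2), or 0.265 times the control, in T24 and 34.3 ± 2.55 CPM (SD, n = 2), or 0.384 times the control, in UMUC3. On the log2 scale the change was -1.92 ± 0.18 and -1.38 ± 0.19. Ratios of 0.5 or less in both lines were seen in 365 genes, 1.76% of those tested.

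CHD9 (ENSG00000177200, 16:53055033-53329150, plus strand), of the same subfamily as CHD6, was lower after knockdown in both lines and more so in UMUC3. T24 libraries held 75.0 CPM in the control, 41.3 CPM after knockdown 1 and 51.0 CPM after knockdown 2. UMUC3 libraries held 112 CPM, 38.6 CPM and 45.0 CPM in that order. The log2 change was -0.70 ± 0.20 in T24 and -1.42 ± 0.19 in UMUC3. The 4 knockdown libraries held 38.6 to 51.0 CPM, below both controls.

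CHD7 (ENSG00000171316, 8:60678778-60868028, plus strand), the gene mutated in CHARGE syndrome, had 9.87 CPM in control T24 cells, 20.3 CPM after knockdown 1 and 37.8 CPM after knockdown 2. Its UMUC3 values were 112 CPM, 92.9 CPM and 137 CPM in the same order, on either side of the control. The T24 ratio of 2.94 was the highest among the 10 genes in that line, from the lowest control level. CHD8 (ENSG00000100888, 14:21385194-21456126, minus strand), which binds beta-catenin and is an autism gene, was nearly level. Its T24 levels were 143, 172 and 159 CPM and its UMUC3 levels 125, 146 and 125 CPM, in the order control, knockdown 1, knockdown 2. In UMUC3 knockdown 2 exceeded the control by a ratio of only 1.003, a margin smaller than its spread between knockdown libraries.

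**Figure D2:**
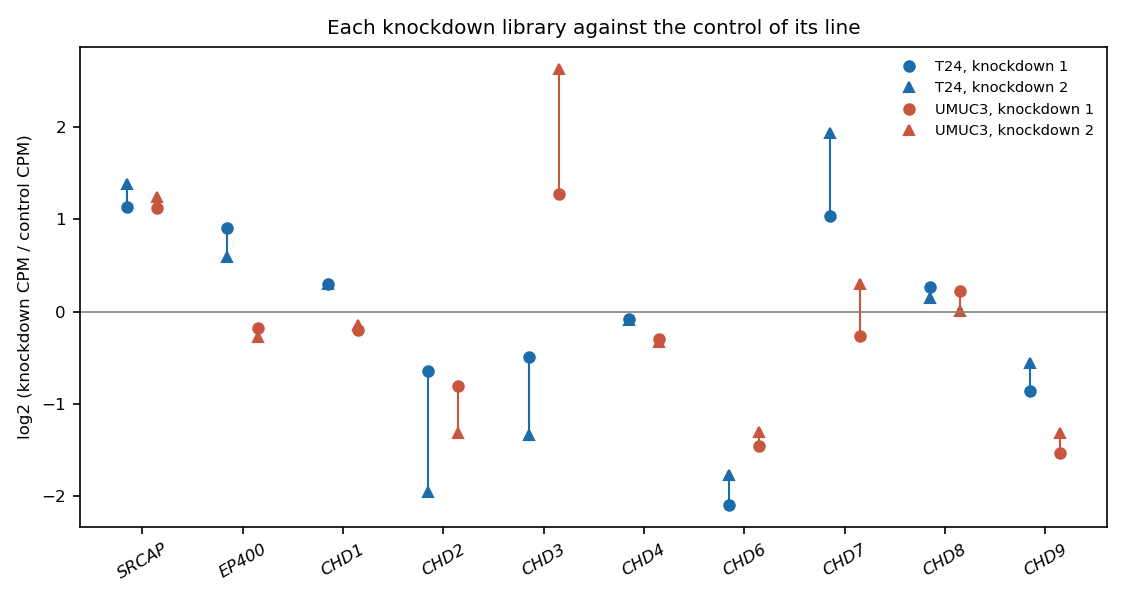
Log2 ratio of each knockdown library to the control of its line (vertical axis) for the 10 genes, circles for knockdown 1, triangles for knockdown 2, blue for T24 and red for UMUC3. SRCAP lies between 1.13 and 1.39 and CHD6 between -1.3 and -2.1 in all 4 libraries, while EP400, CHD1 and CHD3 lie on opposite sides of 0 in the 2 lines.

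The knockdown change differed little between the lines for SRCAP (UMUC3 minus T24, log2 -0.08 ± 0.22) and CHD2 (0.11 ± 0.89), the latter with a wide error. The difference was largest for CHD3 (2.96 ± 1.04), followed by CHD7 (-1.51 ± 0.68), EP400 (-0.99 ± 0.27) and CHD9 (-0.72 ± 0.28). No member passed edgeR's quasi-likelihood test of this difference after adjustment, where 5 genes (0.0241%) did. The same test gave an unadjusted p under 0.05 for 3 members, beside 14.3% of all tested genes, and DESeq2 called 0, beside 7.04%. Over the 10 genes the median log2 knockdown change was 0.06 in T24 and -0.20 in UMUC3, beside a median of 0 over all tested genes in UMUC3.

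Which transcripts carried the counts differed widely among the 10 genes. The composition shift of a pair of libraries sums the differences in transcript shares that are positive, so 0% means equal make-up, and the largest value over the pairs within a line is given. Over genes with counts its median was 22.5% in T24 and 23.0% in UMUC3. It stayed under 20% in both lines for SRCAP (15.5% and 11.2%), CHD6 (11.7% and 6.1%) and CHD9 (11.5% and 19.9%), with CHD7 (23.8% and 2.8%) just outside. Of 13220 genes with several transcripts, 33.8% stayed under 20% in both lines. CHD2 (69.8% and 53.6%) exceeded 50% in both lines, as 12.8% of those genes did, and CHD4 (55.1% and 49.3%) came close. CHD3 shifted mostly in UMUC3 (63.9% against 22.0% in T24) and CHD1 only little there (5.1% against 49.4%). EP400 (26.5% and 27.1%) and CHD8 (24.4% and 30.6%) were near the median.

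CHD6 counts lay almost wholly on CHD6-203, the coding transcript of 10818 bases. It held 94.7% of the gene's counts in the T24 control and 83.3% and 88.6% after knockdown, and 97.9%, 94.2% and 92.2% in UMUC3. That transcript taken alone gave a log2 change of -1.76 over both lines, beside -1.66 for the gene sum. The log2 change was thus as large on this transcript as on the whole gene.

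SRCAP counts were spread over a few coding transcripts, in proportions that differed between the lines. SRCAP-205 (5937 bases) held 43.8% of the counts in the T24 control and 35.6% and 36.6% after knockdown, against 75.5%, 73.0% and 68.6% in UMUC3. SRCAP-202 (9126 bases) held 39.5%, 50.9% and 39.7% in T24 and 18.7%, 21.7% and 15.8% in UMUC3. The full-length SRCAP-201 (11754 bases) held 8.04%, 8.51% and 23.0% in T24 and 1.19%, 0.136% and 11.1% in UMUC3, more in knockdown 2 than in the other libraries of each line. SRCAP-205 starts at 30709896, downstream of the RefSeq start at 30699171 that the window above precedes. SRCAP-205 taken alone gave a log2 change of 1.04 over both lines, beside 1.23 for the gene sum.

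CHD4-227 (ENST00000644356, GENCODE class retained intron, 3075 bases) held 32.6% of CHD4 counts in the T24 control (7300 counts) and 0.019% and 0% after knockdown (4 and 0 counts). In UMUC3 it held 25.9% in the control (7357 counts) and 0% and 0.036% after knockdown (0 and 9 counts). Coding transcripts held 57.8% of CHD4 counts in the T24 control and 96.3% and 91.9% after knockdown, and 60.6%, 95.2% and 96.2% in UMUC3. A transcript at 20% or more of its gene in both controls and under 1% in all 4 knockdown libraries was seen in 39 of 12516 genes (0.312%), and the reverse in 27 genes. These limits were chosen after the CHD4 values were seen. Since 2864 of the 3075 bases of CHD4-227 also belong to the coding transcript CHD4-206, most of its reads could have been given to either, and whether the controls hold reads in the retained intron was not tested.

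Within the coding transcripts of CHD4 the knockdown libraries differed from each other. CHD4-225 (5007 bases) held 18.3% and 40.4% of the counts in T24 after knockdown 1 and 2, against 0.009% in the control. In UMUC3 it held 0%, 0% and 7.73%. CHD4-231 held 9.16%, 16.3% and 9.42% in T24 and 5.77%, 20.1% and 14.5% in UMUC3, more after each knockdown than in the control.

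CHD2 counts were split differently in nearly every library. CHD2-201 held 86.5% in the UMUC3 control and 35.2% and 33.1% after knockdown, and 29.1%, 16.8% and 2.86% in T24. CHD2-205, a transcript marked for nonsense-mediated decay, held 31.3%, 28.4% and 8.02% in T24 and 0%, 8.84% and 13.8% in UMUC3. CHD2-202 held 58.9% in T24 knockdown 2, against 2.43% in the T24 control and 2.36% in knockdown 1. The library with the lowest CHD2 level in T24 was therefore also the one whose transcript make-up stood apart.

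CHD3-203 held 29.2% of CHD3 counts in the UMUC3 control and 85.2% and 81.2% after knockdown, while it held 64.1%, 80.5% and 67.6% in T24. In the UMUC3 control, CHD3-202 and CHD3-201 held a further 25.5% and 25.3%, and both were under 1% after knockdown. CHD1-201 held 56.2% of CHD1 counts in T24 knockdown 1 alone, against 2.33% to 12.4% in the other 5 libraries, although that library had the same CHD1 level as knockdown 2. EP400-205 held 12.1%, 38.0% and 20.3% in T24 and 22.8%, 0.035% and 5.69% in UMUC3. The most used EP400 transcript, EP400-201 (3908 bases, 12:132062595-132080457), covers only the end of the gene and held 41.6% to 67.7%. CHD7-201 (73.2% to 96.8%), CHD8-209 (56.2% to 73.0%) and CHD9-202 (70.4% to 87.0%) led their genes in all libraries.

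**Figure D3:**
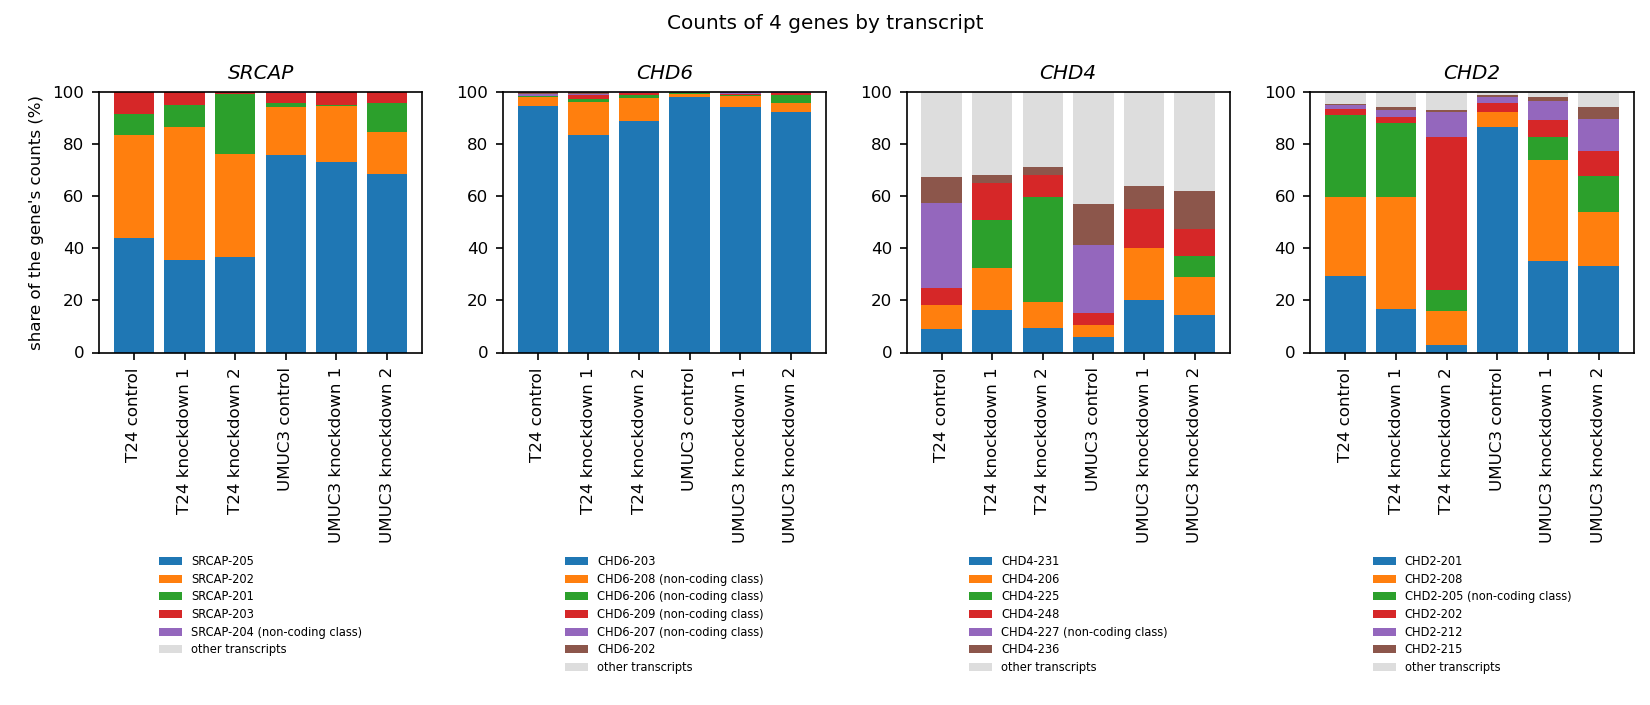
Share of the counts of SRCAP, CHD6, CHD4 and CHD2 (vertical axis, percent) held by each of up to 6 transcripts with the highest mean share in the 6 libraries, with the rest in grey. CHD4-227 (purple in the CHD4 panel) holds 32.6% and 25.9% in the controls and is not visible after knockdown, while CHD6-203 (blue) holds at least 83.3% throughout.

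Between the lines, SRCAP was higher in T24, and CHD7 and CHD1 were higher in UMUC3. The test is the line term of a fit over all 6 libraries that also holds the knockdown term, and it compares 3 libraries of each line. Of the 10 genes, 3 passed edgeR's quasi-likelihood test after adjustment, beside 35.3% of all tested genes (18.8% higher and 16.5% lower in T24), so their share is near the background. DESeq2 called 6 of the 10, these 3 and CHD2, CHD3 and CHD4, beside 47.1% of all tested genes.

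CHD7 differed most. Its 3 T24 libraries held 9.87 to 37.8 CPM and its 3 UMUC3 libraries 92.9 to 137 CPM, with no overlap. The log2 difference (T24 minus UMUC3) was -2.48 ± 0.45 (SE, edgeR adjusted p = 0.0129). Without UMUC3 knockdown 2 it was -2.49, with an edgeR adjusted p of 0.0509. Between the controls, CHD7 was 11.3 times higher in UMUC3.

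SRCAP was at 60.3 to 158 CPM in T24 and 36.0 to 85.3 CPM in UMUC3, so the ranges overlapped, while the T24 control exceeded the UMUC3 control and both T24 knockdown libraries exceeded both of UMUC3. The log2 difference was 0.80 ± 0.12 (edgeR adjusted p = 0.00686). With each library left out in turn it was 0.72 to 0.86, with edgeR adjusted p from 0.0175 to 0.0331. On SRCAP-205 alone the difference was -0.11 (edgeR adjusted p = 0.559), so the line difference of the gene sum was not seen on this transcript.

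CHD1 was at 74.3 to 91.8 CPM in T24 and at 119 to 136 CPM in UMUC3, with no overlap. The log2 difference was -0.56 ± 0.13 (edgeR adjusted p = 0.0286). The call was lost without any 1 of the 4 knockdown libraries, with edgeR adjusted p of 0.0585 to 0.0784.

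The other 7 genes did not pass. EP400 (-0.57 ± 0.25, edgeR adjusted p = 0.138) and CHD4 (-0.29 ± 0.09, edgeR adjusted p = 0.052) were higher in every UMUC3 library than in any T24 library. The lines thus did not overlap for 4 of the 10 genes, beside 52.3% of all tested genes. UMUC3 was the higher line in all 4, beside 25.1% of all tested genes with every UMUC3 library above every T24 library and 27.2% with the reverse. For EP400 the nearest libraries were at 47.4 CPM in UMUC3 and 45.7 CPM in T24, and reads shared with EP400P1 could change that order. CHD2 (1.24 ± 0.37, edgeR adjusted p = 0.0534) and CHD3 (-1.72 ± 0.82, edgeR adjusted p = 0.169) overlapped. The CHD2 difference passed without T24 knockdown 2 (1.56, edgeR adjusted p = 0.0185). The CHD3 difference reversed between the controls alone, where T24 was 1.25 times higher. It passed without the T24 control (-2.62, edgeR adjusted p = 0.0467) and without the UMUC3 control (-2.63, edgeR adjusted p = 0.0466). Either fit compares only the knockdown libraries of the 2 lines, so these passes are 1 comparison and not separate ones. CHD6 (0.42 ± 0.18), CHD8 (0.26 ± 0.11) and CHD9 (-0.10 ± 0.20) had edgeR adjusted p of 0.128, 0.123 and 0.755, which does not show that the lines are alike in these genes.

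**Figure D4:**
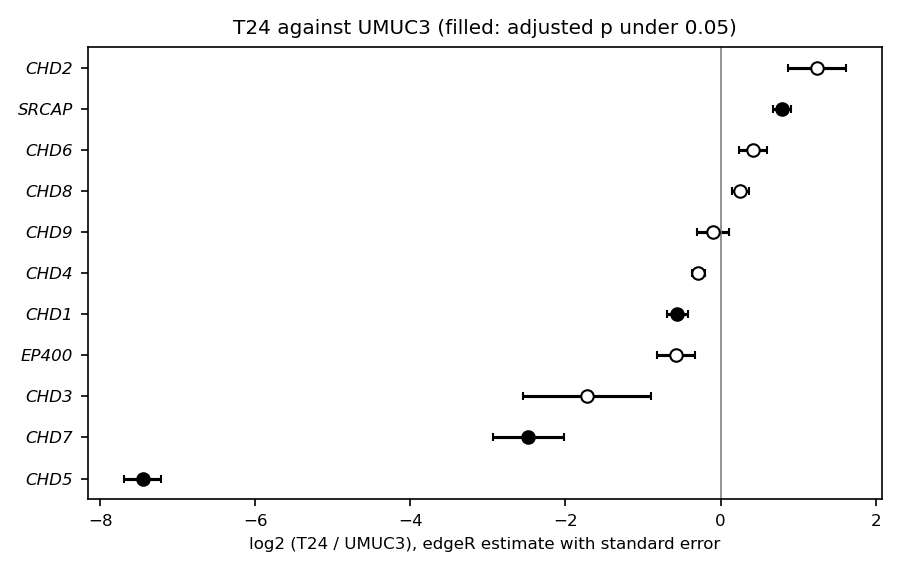
Log2 difference T24 minus UMUC3 (horizontal axis) with its standard error from edgeR for the 10 genes and CHD5, ordered by value, with filled points for adjusted p under 0.05. SRCAP is the only filled point above 0, and CHD1, CHD7 and CHD5 are filled below 0.

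Levels can be set against each other only per length, here as RPKM, counts per kilobase of transcript scaled to the counts of a library in named genes. The counts of each transcript were divided by its own length, so these values depend on how reads were divided among transcripts. A change in RPKM can therefore differ from that in CPM. CHD4 was highest in all 6 libraries, at 87.7, 65.1 and 77.9 in T24 and 121, 76.1 and 73.1 in UMUC3. Part of its control value lies on CHD4-227 (3075 bases), whereas in CPM the T24 values were 376, 356 and 353. CHD8 came next in all but the T24 control, at 26.4 to 31.9 over the 6 libraries. SRCAP held rank 6 in the T24 control (13.9) and rank 3 in both knockdown libraries (23.8 and 20.7), and rank 9 in the UMUC3 control (7.43) against ranks 4 and 5 (16.5 and 17.0). CHD6 held rank 4 (17.8) in the T24 control and ranks 9 and 7 (5.71 and 6.14) after knockdown, and rank 8 (9.09) in the UMUC3 control against rank 10 (3.99 and 5.03). CHD7 was lowest in T24 (1.55, 3.23 and 3.82) but stood at ranks 6 and 7 in UMUC3 (9.29 to 13.7). In the UMUC3 control, ranks 4 to 10 ran from 13.0 to 7.10, steps that a single library cannot separate.

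The partners of these motors were taken from 6 lists, covering SRCAP and TIP60-EP400 subunits with H2A.Z genes, NuRD, ISWI, INO80 and SWI/SNF subunits, and the remaining CHD genes CHD1L and CHD5. All 80 of their genes were tested. After knockdown, edgeR called 0 of the 80 in both lines together, in T24 or in UMUC3, with 15, 23 and 18 at an unadjusted p under 0.05, beside 9.55%, 12.2% and 16.9% of all tested genes. DESeq2 called 11, 6 and 9, beside 6.21%, 5.91% and 10.4%. Between the lines edgeR called 24 of the 80, beside 35.3% of all tested genes (18.8% higher and 16.5% lower in T24). These shares are the background for the line calls of each list below.

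Of 23 SRCAP and TIP60-EP400 genes, 3 were higher and 5 lower in T24, and the median log2 line difference was -0.24, beside 0.02 over all tested genes. Higher were CFDP1 (1.99 ± 0.12, edgeR adjusted p = 0.000777), a SRCAP subunit, KAT5 (0.95 ± 0.13, edgeR adjusted p = 0.00568), the TIP60 acetyltransferase, and MORF4L1 (1.21 ± 0.18, edgeR adjusted p = 0.00731), a chromodomain protein. Lower were MORF4L2 (-0.65 ± 0.08, edgeR adjusted p = 0.00389), H2AFV (-0.40 ± 0.09, edgeR adjusted p = 0.0212), an H2A.Z gene, and YEATS4 (-1.12 ± 0.27, edgeR adjusted p = 0.0285), an acetyl-lysine reader. ZNHIT1 and RUVBL1, which are outside the naming rule and were named after their values were seen, were also lower. After knockdown 3 of the 23 lay above the control in all 4 libraries and 6 below it, beside 13.3% and 15.1% of all tested genes. The median log2 change of the 23 genes was -0.05. H2AFV was at 199.9, 133 and 133 CPM in T24 and at 246, 184 and 179 CPM in UMUC3, in the order control, knockdown 1, knockdown 2. MORF4L1 was at 416, 262 and 268 CPM in T24 and 255, 90.8 and 101 CPM in UMUC3. Both lay below their control in all 4 knockdown libraries, and the composition shift of MORF4L1 was 77.2% in UMUC3. The other H2A.Z gene, H2AFZ, named after its values were seen, was at 412, 327 and 308 CPM in T24 and at 291, 312 and 292 CPM in UMUC3, below its control in T24 and above it in UMUC3.

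Of 12 NuRD genes besides CHD3 and CHD4, 2 were higher and 2 lower in T24. MBD3 (1.43 ± 0.16, edgeR adjusted p = 0.00317), an MBD family subunit like MBD2 of the same list, and HDAC1 (1.15 ± 0.24, edgeR adjusted p = 0.0192) were higher. HDAC2 (-1.30 ± 0.14, edgeR adjusted p = 0.00276) and MTA1 (-0.79 ± 0.14, edgeR adjusted p = 0.011) were lower. The paired deacetylases thus differed in opposite directions between the lines. After knockdown HDAC1 was at 446, 453 and 469 CPM in T24, nearly level, and at 122, 272 and 260 CPM in UMUC3. The median log2 knockdown change of the 12 genes was 0.14 over both lines, with 4 above and 2 below the control in all 4 libraries. Over all tested genes these shares were 13.3% and 15.1%.

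In the other lists, 1 ISWI gene was higher (BPTF, 0.47 ± 0.11, edgeR adjusted p = 0.0291) and 2 were lower in T24 (BAZ1B, -0.77 ± 0.11, edgeR adjusted p = 0.00558, and CHRAC1, -1.21 ± 0.20, edgeR adjusted p = 0.00989) of 10 tested. Of 12 INO80 genes, INO80E (0.71 ± 0.14, edgeR adjusted p = 0.0177) was higher and UCHL5 (-0.59 ± 0.13, edgeR adjusted p = 0.0204) lower. Of 21 SWI/SNF genes, 4 were higher, among them BCL7C (0.85 ± 0.21), SMARCD1 (0.51 ± 0.12) and DPF2 (0.49 ± 0.12) with edgeR adjusted p of 0.0288, 0.0292 and 0.0326. The fourth, named after its values were seen, was the motor gene SMARCA4. ARID2 (-0.93 ± 0.17, edgeR adjusted p = 0.0132) and ARID1B (-0.36 ± 0.10, edgeR adjusted p = 0.0442) were lower. After knockdown 8 of the 21 SWI/SNF genes lay above the control in all 4 libraries and 3 below, beside 13.3% and 15.1% of all tested genes. The median log2 change of the 21 genes was 0.05.

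CHD5, the third member of the CHD3 and CHD4 subfamily and a gene chiefly of nervous tissue and testis, had a wider line difference than any of the 10 genes. It was at 0.286, 0.521 and 0.74 CPM in T24 and at 59.1, 111 and 95.9 CPM in UMUC3, in the order control, knockdown 1, knockdown 2. The T24 and UMUC3 ranges were far apart, and the log2 difference was -7.45 ± 0.24 (edgeR adjusted p = 0.000244). CHD1L was at 6.21 to 12.7 CPM in all libraries and did not pass.

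The genes that ran most like SRCAP and CHD6 were ranked by Pearson r of log2(CPM + 0.5), centred within each line, over the 6 libraries and 11139 genes with a mean of at least 5 CPM. For SRCAP these were PTPRK (r = 0.9997), a receptor phosphatase, PNRC2 (0.9991), a decapping cofactor, and IGF2R (0.999), a sorting receptor. For CHD6 they were BLMH (0.9989), a cysteine protease, YTHDF2 (0.9986), a reader of methylated RNA, and CTNNAL1 (0.9981), a catenin-like protein. The composition shift in T24 and UMUC3 was 65.1% and 63.7% for PTPRK and 9.54% and 91.8% for YTHDF2. It was at most 5.05% in either line for PNRC2, IGF2R, BLMH and CTNNAL1. With a control and 2 knockdown libraries per line such values are easily high, and 252 genes reached r of 0.95 with SRCAP and 257 with CHD6. The libraries are shared by all genes, so the coefficients only describe.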

How the data were processed

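RNA of 6 cell line libraries was sequenced from total RNA extracted with Trizol. The authors deposited raw read counts per transcript, and the submitters' processing notes name FastQC 0.11.5, HISAT2 2.1.0, StringTie 1.3.3b and hg38 without roles or order. Strand and poly(A) selection are not stated in the sources. Of 136953 transcripts, 15038 carry no gene. These transcripts, with 14.9 to 16.1% of each library, were not used. The others were summed to 30717 genes. All 169 transcripts of the 10 genes matched GENCODE on GRCh38, which gave names, classes and lengths.

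A gene entered the test with 10 or more counts in 2 or more libraries and a total of 30 or more (20721 genes, all 10 members among them). Tests used edgeR 4.0.16 in R 4.3.3 (TMM, robust quasi-likelihood F test, Benjamini-Hochberg adjustment over all tested genes at 0.05). An additive model of line and knockdown gave the change over both lines and the line contrast (3 residual degrees of freedom). A model of 4 groups gave the change per line (2 degrees of freedom), where the lone control is assumed to vary like the knockdown libraries. DESeq2 1.42.0 was an alternative. Neither knockdown pair agreed within sampling noise (chi-square per degree of freedom of 115.9 and 112.4).

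Members and lists were chosen with earlier results of these data known. Named were the 10 members, per list up to 3 genes in each direction past the threshold, ordered by adjusted p between the lines, and otherwise the 2 with the smallest p, and the 3 genes most like SRCAP and CHD6. In T24 the siRNA number of the title and the number of the data column are swapped. Other alternatives were another scaling, no filter, replicate blocks, leaving out each library, genes of stable transcript make-up, each member's most used transcript, and controls or knockdown libraries alone. A stretch of 1 CHD4 transcript is not reported here.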

Additional observations from a re-analysis of the deposited data

How the results depend on the processing

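Counts of called genes in the knockdown contrasts depended strongly on the processing. EdgeR called 2 (both lines), 2 (T24), 13 (UMUC3), 5 (difference between the lines) and 7310 genes (line contrast). In the same order DESeq2 called 987, 963, 1700, 1120 and 9765. Without a filter on low counts, 2, 48, 253, 40 and 6793 were called. Among the 4467 genes of stable transcript make-up, the numbers were 49, 143, 530, 120 and 2372. Without 1 library each, they were 0 to 18, 0 to 18, 0 to 16, 0 to 0 and 4671 to 6600. The top of the first range comes from the fit without UMUC3 control. Without either control the additive model takes its knockdown change from the other line alone, so that fit gives no both-lines count. Without any 1 of the 4 knockdown libraries the both-lines count was 0 (edgeR, with 1366 to 1493 genes at an unadjusted p under 0.05). The T24 change could not be fitted without the T24 control, nor the UMUC3 change without the UMUC3 control. The replicate block called 0 genes in each knockdown contrast and the difference, with the title's numbers (1138 to 2631 at an unadjusted p under 0.05, edgeR) and with the column's numbers (1036 to 2081), and 5184 and 5183 in the line contrast. Deviations of same-numbered libraries correlated at 0.011 (titles) and -0.011 (columns). These are 1 value with its sign turned, since only the T24 numbers are swapped. The deviations were thus not shared between the lines, which cannot show whether a number marks the same reagent in both. Under the block the CHD1 line call was lost (edgeR adjusted p = 0.0685 and 0.0725), and CHD2 passed with the title's numbers (edgeR adjusted p = 0.0266). RLE scaling and keeping rows with no gene in library sizes left the counts within 7303 to 7310 in the line contrast. Line differences of the 10 genes kept direction and side of the threshold in 131 of 153 refits, passed it anew in 9, lost it in 7 and reversed in 6. Reversed were CHD9 (-0.25 to 0.15 over the fits without 1 library, with 0.15 without T24 control and 0.14 without UMUC3 control, and 0.14 with knockdown libraries only), SRCAP (-0.11) and CHD2 (-0.23) on the most used transcript alone, and CHD3 (0.33, log2) in the controls alone. Without a control the line term compares only the knockdown libraries of the 2 lines. The CHD9 reversals are therefore 1 comparison, and the refits counted here overlap. The causes were not tested. Knockdown changes of the 10 genes stayed within 1 standard error in 453 of 492 refits, and 21 of the 39 that moved used the most used transcript alone. Some refits could barely move them, such as rows with no gene kept in library sizes. Changes of sign were not counted. Without 1 library, the additive model gave a log2 knockdown change of -0.17 to 0.30 for CHD1 and -0.22 to 0.76 for EP400. For CHD3 it was -0.85 to 2.1. A fit without a control takes this change from the other line alone, so the ends of these ranges are changes of single lines. They restate that these genes stood on opposite sides in the 2 lines. With 1 control per line, no spread between controls is known.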

Other observations

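Among the partner genes, POLE3, a histone-fold protein shared by DNA polymerase epsilon and the ISWI complex CHRAC, had knockdown values as even as those of CHD6. It is named here after its values were seen. POLE3 was at 160.0 CPM in control T24 cells, 63.4 CPM after knockdown 1 and 59.1 CPM after knockdown 2, and its UMUC3 values were 156, 59.0 and 53.5 CPM in the same order. All 4 knockdown libraries lay below both controls. The log2 change over both lines was -1.43 ± 0.11 (SE), with an edgeR adjusted p of 0.105, so it did not pass, whereas DESeq2 called it. The composition shift of POLE3 was 42.5% in T24 and 44.4% in UMUC3. CHRAC1, its histone-fold partner in that complex, was at 55.8, 39.3 and 41.5 CPM in T24 and at 89.0, 105 and 119 CPM in UMUC3, on opposite sides of the control in the 2 lines.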
